A study of Mus musculus with 4 samples.

Results

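The claudin genes Cldn3, Cldn4, Cldn5, Cldn6, Cldn7 and Cldn9 and the keratin genes Krt7, Krt8, Krt18 and Krt19 were followed in wild-type (WT) and Cripto knock-out (KO) mouse cells before and after the change from serum/LIF to F/A. The members were taken by name, through the Ensembl identifiers of the deposited tables, and were chosen with earlier results of these data known. They are 10 of the 37620 genes counted, 6 claudins and 4 keratins, and 9 of them are among the 15462 genes kept in the normalized table. Cldn5 is the member that was not kept. All 9 were at least 2-fold higher in F/A than in serum/LIF in each genotype, the keratins by up to 283-fold and the claudins by up to 11-fold. Of these, Cldn9 could be kept only through its F/A libraries.

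Claudins are membrane proteins with 4 membrane-spanning segments that form the strands of tight junctions and set how tightly neighbouring epithelial cells are sealed. Cldn6 is a claudin of embryonic epithelia, Cldn3, Cldn4 and Cldn7 are found in many epithelia, and Cldn5 is best known from the endothelium. Keratins form intermediate filaments from obligate pairs of a type I and a type II chain, and the type II chains Krt8 and Krt7 with the type I chains Krt18 and Krt19 are the set of simple, single-layered epithelia. Epiblast stem cells (EpiSCs) grow as an epithelium, whereas embryonic stem cells (ESCs) in serum/LIF grow as rounded colonies.

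R1 ESCs, a mouse line of strain 129/Sv, were either WT or Cripto KO, with a knock-out of Tdgf1, the gene of the Nodal co-receptor Cripto. The 4 groups were serum/LIF WT and serum/LIF Cripto KO (ESCs) and F/A WT and F/A Cripto KO, which had been seeded at low density and kept for 6 days in N2B27 medium with Activin A (20 ng per ml) and bFGF, the protocol for making EpiSCs. The study describes 2 Cripto KO clones, and the labels do not say which of them was sequenced, so a genotype stands here for 1 culture. RNA of each group was sequenced as 1 library. There is therefore no replicate error and no test, and every difference is one between libraries of single cultures.

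The libraries held between 15230856 and 17315442 counts on genes. Nearly all counts of F/A Cripto KO were even. Only 3 of its 18700 genes with counts had an odd count (0.0160%), against 53.1% to 53.6% in the other libraries, so its counts were halved for every interval and its detection limit was set at 6 counts, against 3 in the others. Tdgf1 had 18714 counts in WT and 945 in Cripto KO in serum/LIF, and 1572 and 86 in F/A, and was thus low in the knock-out in each medium. Of the markers of the labelled cell types, Pou5f1, a core pluripotency factor, had 26857 and 21995 counts in the WT and Cripto KO libraries of serum/LIF and 1810 and 1216 in those of F/A. Fgf5, a marker of the epiblast, had 3 and 1, and 2206 and 394. Of the 8 pluripotency and epiblast markers 7 were kept. In F/A against serum/LIF, 1 of these was at least 2-fold higher and 5 lower in each genotype. Over all genes 22.1% were higher and 20.9% lower in WT, and 19.9% and 19.4% in Cripto KO. In the order serum/LIF WT, serum/LIF Cripto KO, F/A WT, F/A Cripto KO, Sox2 had 12560, 12669, 612 and 750 counts. Nanog had 11633, 7270, 259 and 126, and Otx2 had 1307, 1023, 2375 and 678. RNA was taken from whole cultures, in which fewer cells of a type and less RNA per cell cannot be told apart. Levels are given below as CPM, that is, the count scaled to 1000000 counts in the library, and also per kilobase of median transcript length where genes are compared with each other. The intervals in parentheses are 95% Clopper-Pearson intervals, which cover counting error only.

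Krt8 and Krt18 were scarce in serum/LIF and were the most abundant members in F/A. Krt8, the type II chain common to simple epithelia, had 89 counts in WT and 90 in Cripto KO in serum/LIF, and 19493 and 21894 in F/A. Krt18, its usual type I partner, had 148, 85, 14581 and 16184 counts in the order serum/LIF WT, serum/LIF Cripto KO, F/A WT, F/A Cripto KO, which is kept below. For both genes the F/A libraries lay far above the serum/LIF libraries, and within F/A the knock-out library was slightly higher. Among the genes of the normalized table Krt8 went from rank 11380 to rank 43 in WT and from rank 11079 to rank 43 in Cripto KO, and Krt18 reached ranks 73 and 77. In F/A, 0.128% of all gene counts in WT and 0.139% in Cripto KO came from Krt8.

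Krt19, an unusually short type I keratin without the tail domain of other keratins, had 164 counts in WT and 65 in Cripto KO in serum/LIF, and 4884 and 5678 in F/A. Krt7, the type II chain of ductal and other glandular epithelia, had 71, 19, 769 and 802 counts in the same order. Both were lowest in serum/LIF Cripto KO. Per kilobase, the order in F/A WT was Krt8 (709), Krt18 (684), Krt19 (390) and Krt7 (73.2), and F/A Cripto KO gave the same order with 771, 734, 438 and 73.8. In serum/LIF WT the order was Krt19 (11.5), Krt18 (6.11), Krt7 (5.94) and Krt8 (2.85), and the intervals of Krt18 and Krt7 overlapped. In serum/LIF Cripto KO it was Krt19 (4.86), Krt18 (3.73), Krt8 (3.07) and Krt7 (1.69), and the intervals of each pair of neighbours overlapped. The median transcript of Krt7 (690 bases) and of Krt19 (823 bases) is much shorter than the longest (4094 and 1576 bases), and the orders within serum/LIF depend on this choice. With the longest transcript F/A kept its order, with Krt19 at 203 and Krt7 at 12.3 CPM per kilobase in WT. In serum/LIF WT the order became Krt18 (6.11), Krt19 (6.01), Krt8 (2.85) and lastly Krt7, and in serum/LIF Cripto KO it became Krt18 (3.73), Krt8 (3.07), Krt19 (2.54) and Krt7 (0.285).

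The type II chain Krt8 and the type I chain Krt18 stood at a ratio near 1 in F/A and away from it in serum/LIF WT. Per kilobase, the ratio of Krt8 to Krt18 in serum/LIF was 0.466 (0.354 to 0.611) for WT and 0.821 (0.604 to 1.12) for Cripto KO, and in F/A 1.04 (1.01 to 1.06) and 1.05 (1.02 to 1.08). The intervals of the F/A libraries overlapped, and so did those of the serum/LIF libraries. With Krt7 added to Krt8 and Krt19 to Krt18, type II over type I chains stood at 0.499, 0.554, 0.729 and 0.720 in the same order, so the type I chains were the more abundant sum in every library.

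Krt8 and Krt18 are neighbours, transcribed away from each other on chromosome 15. In NCBIM37 Krt8 lies at chr15:101827142-101834773 on the minus strand and Krt18 at chr15:101858647-101862457 on the plus strand, with 23873 bases between them. Their promoters are shown because these genes had the largest changes among the members. Each sequence is the 250 bases before the RefSeq start, taken from the RefSeq promoter table (GRCm38.p6) and found exactly once in NCBIM37, whose coordinates are given, and is read 5′ to 3′ on the gene's strand. Capitals mark matches, on either strand, to CAGGTG (the E-box bound by Snail and Zeb repressors of epithelial genes, CACCTG on the other strand), GCCNNNGGC (an AP-2 site) or TGANTCA (an AP-1 site).
Krt8, chr15:101834774-101835023, minus strand: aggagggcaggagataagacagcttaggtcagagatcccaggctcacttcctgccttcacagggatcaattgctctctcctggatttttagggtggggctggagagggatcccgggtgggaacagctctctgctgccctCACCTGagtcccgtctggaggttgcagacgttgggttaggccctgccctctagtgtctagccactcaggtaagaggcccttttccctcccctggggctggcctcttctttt
Krt18, chr15:101858397-101858646, plus strand: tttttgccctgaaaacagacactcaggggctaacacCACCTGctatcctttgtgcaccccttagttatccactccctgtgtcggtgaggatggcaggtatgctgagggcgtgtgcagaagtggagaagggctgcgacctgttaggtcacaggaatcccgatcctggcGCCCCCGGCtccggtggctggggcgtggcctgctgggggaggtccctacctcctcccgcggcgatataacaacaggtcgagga
Both promoters held 1 CAGGTG match in this stretch, and that of Krt18 also held 1 GCCNNNGGC match that begins 83 bases before its start. A TATAAA match of Krt8 reaches across its annotated start and is not in the printed stretch.

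The claudins were the more abundant family in serum/LIF. Cldn6 had 476 counts in WT and 458 in Cripto KO in serum/LIF, and 4764 and 3358 in F/A. Cldn4 had 1311, 1388, 3883 and 3042 counts in the same order, and Cldn7 had 386, 269, 1424 and 1048. All 3 were highest in F/A WT, next highest in F/A Cripto KO and lowest in serum/LIF. Between the serum/LIF libraries the intervals of the level overlapped for Cldn6, did not for Cldn4, where Cripto KO was higher (85.4 against 75.7 CPM), and did not for Cldn7, where Cripto KO was lower (16.5 against 22.3).

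Cldn3 was less abundant, with 48, 33, 185 and 196 counts. Cldn9 had 13, 7, 29 and 34 counts and Cldn5 had 1, 1, 3 and 10 in the same order. For Cldn3 and Cldn9 the F/A libraries lay above the serum/LIF libraries, and the intervals of the 2 genotypes overlapped within each medium. Cldn5, the claudin of endothelium, stood at or under the detection limit in every library but F/A Cripto KO. Per kilobase, the order in F/A WT was Cldn6 (208), Cldn4 (141), Cldn7 (112), Cldn3 (13.1), Cldn9 (1.33) and Cldn5 (0.139), while in serum/LIF WT Cldn4 (41.9) and Cldn7 (26.7) stood above Cldn6 (18.3), although with its longest transcript Cldn7 had 16.7. Cldn4 gave the largest part of the summed claudin level in serum/LIF, 46.3% for WT and 53.5% for Cripto KO. Cldn6 did so in F/A, with 43.7% and 41.2%.

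Cldn6 and Cldn9 are neighbours on chromosome 17, at chr17:23816332-23819413 and chr17:23819552-23820985, and their ends lie 138 bases apart on opposite strands. Cldn3 (chr5:135462084-135463342) and Cldn4 (chr5:135420996-135422804) form another pair, with 39279 bases between them. Of the remaining members Cldn5 lies at chr16:18776940-18778353, Cldn7 at chr11:69778281-69781387, Krt19 at chr11:100002124-100009979 and Krt7 at chr15:101241474-101260744, and all 10 are annotated as protein-coding. The promoters of Cldn6 and Cldn4 are shown as those of the claudins that led in F/A and in serum/LIF, in the same form as above.
Cldn6, chr17:23816082-23816331, plus strand: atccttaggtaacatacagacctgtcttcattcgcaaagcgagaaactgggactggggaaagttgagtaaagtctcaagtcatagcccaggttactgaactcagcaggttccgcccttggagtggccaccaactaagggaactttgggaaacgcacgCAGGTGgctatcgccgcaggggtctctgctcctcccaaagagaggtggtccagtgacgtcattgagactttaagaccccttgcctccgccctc
Cldn4, chr5:135422805-135423054, minus strand: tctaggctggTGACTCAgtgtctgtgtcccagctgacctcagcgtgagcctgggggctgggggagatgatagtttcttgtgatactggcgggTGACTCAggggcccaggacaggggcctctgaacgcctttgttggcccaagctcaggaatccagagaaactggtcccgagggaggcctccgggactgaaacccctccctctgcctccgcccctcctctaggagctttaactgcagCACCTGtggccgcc
Cldn6 held 1 CAGGTG match in this stretch, while Cldn4 held 1 CAGGTG match, beginning 14 bases before its start, and 2 TGANTCA matches. Of the 10 members, 8 had a promoter in the table, and Cldn9 and Krt19 did not. Over the whole window of 300 bases, which adds 50 bases after the start, CAGGTG was found in 7 of the 9 promoters of these genes (Cldn7 has 2, and 1 of them and that of Cldn5 held no match) and in 20.2% of all 32851 promoters. GCCNNNGGC was found in 3 of the 9 (Cldn3, Krt7 and Krt18) and in 16.6% of all promoters. TGANTCA was found in Cldn4 and in 7.81%, TATAAA in Krt8 and in 13.6%, and AACCGGTT, the site of Grainyhead factors, in none of the 9 and in 0.146%. These matches describe the letters of the windows, and binding was not measured.

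**Figure D1:**
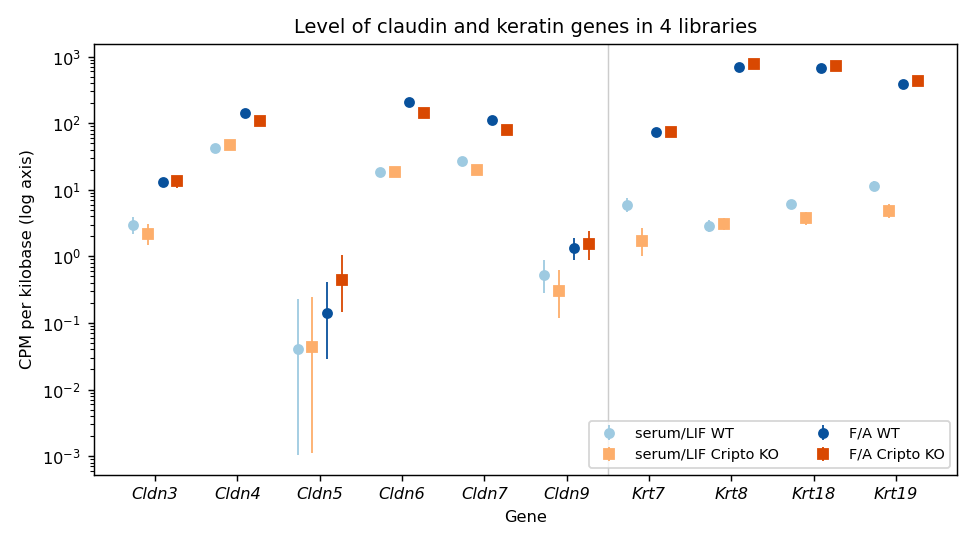
Level of each member in the 4 libraries, as CPM per kilobase of median transcript on a log axis, with 95% counting intervals as bars and 1 library per point. Krt8 and Krt18 stand at 709 and 684 in F/A WT against 2.85 and 6.11 in serum/LIF WT, Cldn6 stands at 208 in F/A WT, and Cldn5 reaches no more than 0.449.

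F/A against serum/LIF is the comparison that follows ESCs into the EpiSC protocol, within WT and within Cripto KO. A gene was called when its normalized values differed at least 2-fold. In WT all 9 members kept were called higher, against 22.1% of the genes tested called higher and 20.9% called lower. In Cripto KO all 9 were again called higher, against 19.9% called higher and 19.4% called lower. Cldn9 lay under the CPM limit of the authors' filter in serum/LIF, at 0.751 in WT and 0.430 in Cripto KO. In F/A it lay above that limit, at 1.90 and 2.16. It could thus be kept only through the F/A libraries, so the direction of its calls was set in advance. The median log2 ratio of the 9 members was 3.46 in WT and 2.89 in Cripto KO, beside -0.07 over all genes in each. The WT and Cripto KO transitions use separate libraries, but each of the genotype comparisons below shares a library with each transition, so these are not independent of each other.

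The keratins made the larger change in each genotype. Krt8 was 283-fold higher in F/A in WT and 243-fold higher in Cripto KO by normalized values, and the ratios of CPM were 249 (202 to 310) and 251 (204 to 313). Krt18 was 122-fold and 186-fold higher, with count ratios of 112 (95.3 to 133) and 197 (159 to 247). These ranked Krt8 at 47 and 44 and Krt18 at 113 and 57 among the 15462 log2 ratios of WT and Cripto KO. Krt19 was 33.2-fold higher in WT and 87.4-fold higher in Cripto KO, and Krt7 12.4-fold and 42.9-fold.

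Among the claudins kept Cldn6 had the largest ratio, 11-fold in WT and 7.39-fold in Cripto KO. Cldn3 was 4.53-fold and 5.81-fold higher, Cldn7 4.01-fold and 3.71-fold, and Cldn4 3.17-fold and 2.25-fold. Cldn9 was 2.98-fold and 5.67-fold higher, but on 13 and 7 counts in serum/LIF, with wide count ratios of 2.54 (1.28 to 5.31) and 5.02 (1.98 to 14.3). Cldn5 gave no fold in WT, where both libraries were at or under the detection limit, and in Cripto KO its count ratio was 10.3 (1.16 to 489) on 10 and 1 counts. In the sum over the family, the claudins went from 90.4 to 475 CPM per kilobase in WT and from 88.2 to 344 in Cripto KO, and the keratins from 26.4 to 1860 and from 13.4 to 2020.

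**Figure D2:**
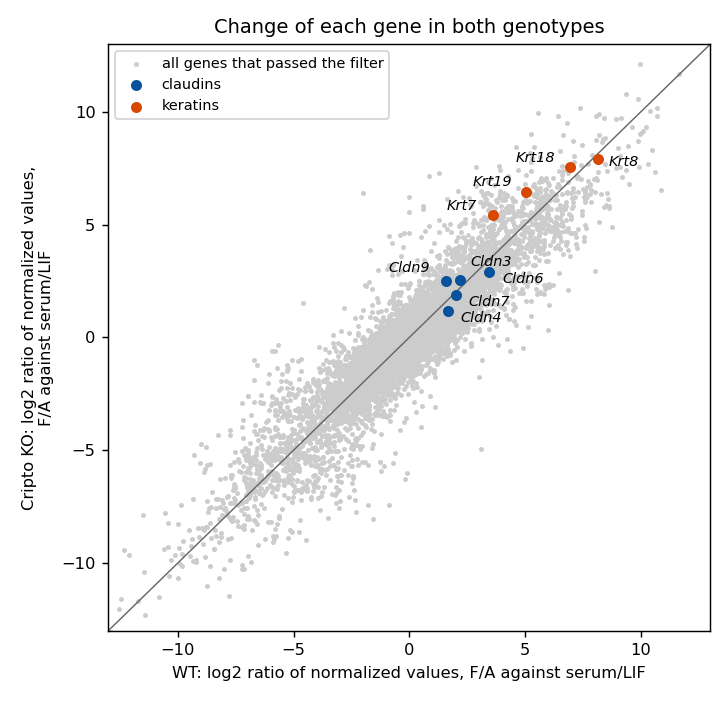
Log2 ratio of normalized values, F/A against serum/LIF, in WT (horizontal axis) and Cripto KO (vertical axis) for the 15462 genes tested (grey), with the 5 claudins kept in blue, the 4 keratins in orange and equal change as the line. All 9 members lie above 1 on each axis, Krt7 and Krt19 lie above the line by 1.80 and 1.40, and Cldn6 lies below it by 0.57.

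Cripto KO against WT in F/A asks whether the cultures that had gone through the protocol differed with genotype. None of the 9 members was called, that is 0 higher and 0 lower, against 4.59% of the genes tested called higher and 5.69% called lower. Of all calls in this comparison 44.7% were higher, and with total counts, TMM factors or DESeq2 size factors between 32.4% and 34.2% were. By count ratio, the abundant claudins lay below 1 and the keratins at or above it. Cldn6, Cldn7 and Cldn4 were lower in Cripto KO, with count ratios of 0.682 (0.645 to 0.721), 0.712 (0.643 to 0.788) and 0.758 (0.714 to 0.805), and log2 ratios of -0.51, -0.48 and -0.35 by normalized values. Every alternative scaling gave these 3 genes a ratio below 1.

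The keratins had count ratios close to 1 in the same comparison. These were 1.12 (1.07 to 1.18) for Krt19, 1.09 (1.06 to 1.11) for Krt8, 1.07 (1.05 to 1.10) for Krt18 and 1.01 (0.892 to 1.14) for Krt7. By normalized values Krt8 had the same value in both libraries, since it holds rank 43 in each and quantile normalization gives equal ranks equal values, and Krt18 was at -0.04 on the log2 scale, so the sign of these 2 genes depends on the scaling. Krt7 also took either sign over the alternatives, and Krt19 stayed above 0, between 0.02 and 0.20. Cldn3 (1.03, 0.794 to 1.32) and Cldn9 (1.13, 0.585 to 2.13) had intervals that held 1, and Cldn5, with 10 counts against 3, had a ratio of 3.23 (0.628 to 20.8). Halving the even counts ahead of the normalization left the number of members called at 0.

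Cripto KO against WT in serum/LIF asks whether the ESCs already differed. Of the 9 members 0 were called higher and 2, Krt7 and Krt19, were called lower, against 2.86% of the genes tested called higher and 2.75% called lower. Of all calls 51.0% were higher, and between 36.9% and 38.1% were with the other 3 scalings. Krt7 had 19 counts against 71, a count ratio of 0.285 (0.162 to 0.478), and a log2 ratio of -1.75. Krt19 had 65 counts against 164, a count ratio of 0.422 (0.312 to 0.566), and a log2 ratio of -1.20. Krt18 stood on the same side with 85 counts against 148 and a ratio of 0.612 (0.463 to 0.804) but did not reach 2-fold, while Krt8, at 90 counts against 89, had a ratio of 1.08 (0.794 to 1.46).

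None of the claudins was called between the serum/LIF libraries. Cldn7 had a count ratio of 0.742 (0.633 to 0.869) and Cldn4 of 1.13 (1.04 to 1.22). Those of Cldn6 (1.02, 0.899 to 1.17), Cldn3 (0.732, 0.455 to 1.16) and Cldn9 (0.573, 0.194 to 1.55) held 1. Of the family sums, that of the claudins was alike (90.4 for WT and 88.2 for Cripto KO, in CPM per kilobase) and that of the keratins was 26.4 and 13.4.

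**Figure D3:**
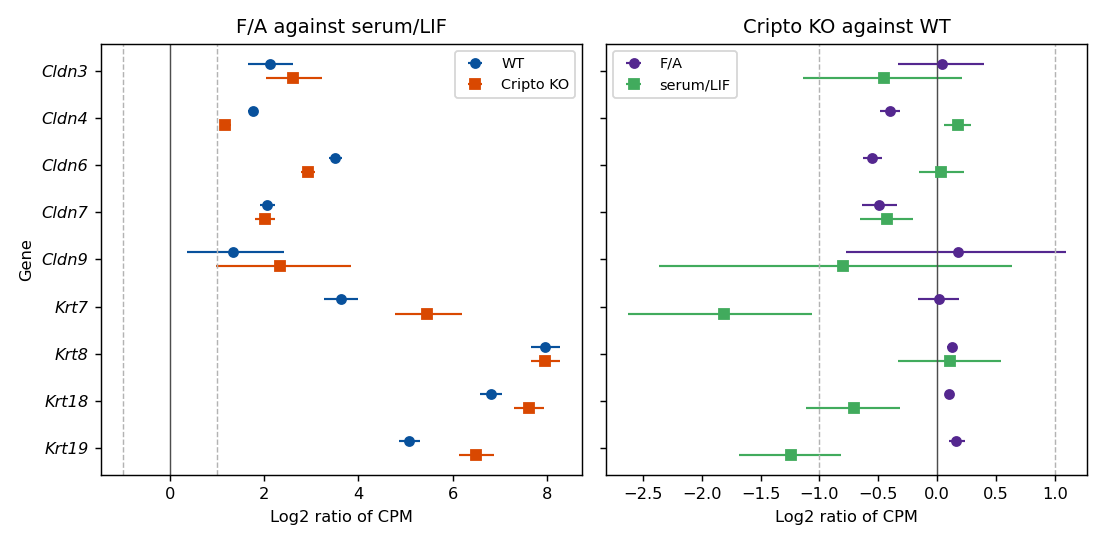
Log2 ratio of CPM for the 9 members kept, F/A against serum/LIF by genotype (left) and Cripto KO against WT by medium (right), with 95% counting intervals as bars, and dashed lines at a 2-fold difference. In F/A, Cldn4, Cldn6 and Cldn7 lie below 0 and the keratins at or just above it, and in serum/LIF Krt7 and Krt19 lie below the lower dashed line.

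The transitions of the genotypes were set against each other by the ratio of their count ratios, Cripto KO over WT. This ratio was 3.54 (2.07 to 6.31) for Krt7, 2.67 (1.98 to 3.62) for Krt19 and 1.76 (1.33 to 2.32) for Krt18, so these 3 keratins had the larger change in Cripto KO. For these the count ratios of Cripto KO to WT were 0.285, 0.422 and 0.612 in serum/LIF and 1.01, 1.12 and 1.07 in F/A. Krt8 had a ratio of 1.01 (0.744 to 1.37). For Cldn6 and Cldn4 the ratio was 0.666 (0.577 to 0.768) and 0.672 (0.610 to 0.741), a smaller change in Cripto KO, and here the count ratios of Cripto KO to WT were 1.02 and 1.13 in serum/LIF and 0.682 and 0.758 in F/A. The intervals of Cldn7 (0.960, 0.794 to 1.16), Cldn3 (1.40, 0.821 to 2.41) and Cldn9 (1.98, 0.588 to 7.06) held 1.

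The partners of the claudins at the tight junction were compared between the F/A libraries. Of 29 such genes 28 were kept, 0 were called higher and 2 were called lower, where 4.59% and 5.69% of all genes were called, and 22 had a ratio below 1, with a median log2 ratio of -0.30 beside 0 over all genes. Amot, a junctional scaffold that binds the Hippo effector Yap, had 80 counts in WT and 58 in Cripto KO in serum/LIF, and 15938 and 5044 in F/A and was called lower (log2 ratio -1.84). The other call, Jam2, rests on 8 and 23 counts. Cgn (cingulin), Tjp1 (ZO-1, the scaffold that claudins bind) and Ocln (occludin) had log2 ratios of -0.88, -0.84 and -0.81, short of the threshold. In the transition, 16 of the 28 were called higher and 3 lower in WT, and 15 higher and 3 lower in Cripto KO. Of all genes, 22.1% were called higher and 20.9% lower in the WT transition, and 19.9% and 19.4% in that of Cripto KO.

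Desmosomes anchor keratin filaments at the cell border through plakins. Of 13 genes of desmosomes and plakins 12 were kept, and 9 had a ratio below 1 between the F/A libraries (median log2 ratio -0.30). None was called there, where 4.59% of all genes were called higher and 5.69% lower. Dsp (desmoplakin, the link between keratins and the desmosome) had 777 counts in WT and 550 in Cripto KO in serum/LIF, and 14101 and 8126 in F/A, a log2 ratio of -0.92 between the F/A libraries. Dst, Ppl (periplakin) and Dsc2 (a desmosomal cadherin) were at -0.99, -0.77 and -0.60. In the transition 5 of the 12 were called higher and 2 lower in WT, and 4 higher and 1 lower in Cripto KO. The shares over all genes were 22.1% and 20.9% in WT and 19.9% and 19.4% in Cripto KO.

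Of 18 epithelial regulators and surface genes 17 were kept, and all 17 had a ratio below 1 between the F/A libraries, 4 of them called lower and 0 higher, with a median log2 ratio of -0.61. With TMM factors 16 of the 17 were below 1. Over all genes 4.59% were called higher and 5.69% lower in this comparison. Esrp2 and Esrp1, splicing factors of epithelial cells, were at -1.20 each. Cdh1 (E-cadherin) had 8981 counts in WT and 7781 in Cripto KO in serum/LIF, and 16176 and 8942 in F/A, a log2 ratio of -1.08 by normalized values and a count ratio of 0.535, which is short of 2-fold. Klf5 was at -0.73, and the fourth call was Grhl3, a Grainyhead factor, with 90 counts against 187. In the transition 4 of the 17 were called higher and 4 lower in WT, and 2 higher and 5 lower in Cripto KO. The shares over all genes were 22.1% and 20.9% in WT, close to those of the list, and 19.9% and 19.4% in Cripto KO.

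Of the other intermediate filament genes all 13 were kept, 3 were called higher (2 with the other 3 scalings) and 1 lower in F/A Cripto KO, with a median log2 ratio of 0.26. Of the higher calls, Nefh rests on 14 and 5 counts and Gfap on 4 and 2. Over all genes 4.59% were called higher and 5.69% lower. Des (desmin, of muscle) had 1358 counts in F/A Cripto KO against 372 in F/A WT, a log2 ratio of 1.82, and Nefl, a neurofilament chain, 150 against 304 and -1.05. Nefm was at -0.65 and Lmna (lamin A/C) at 0.51. In the transition 3 were called higher and 5 lower in WT, and 4 higher and 4 lower in Cripto KO. The shares over all genes were 22.1% and 20.9% in WT and 19.9% and 19.4% in Cripto KO. Between the serum/LIF libraries the 4 lists together held 2 calls, both higher, where 2.86% of all genes were called higher and 2.75% lower.

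The log2 ratios moved with transcript length, between the F/A libraries and in the transitions. Between the F/A libraries the median was 0.15 over the 3861 genes with the shortest transcripts (33 to 924 bases). It was -0.18 over the 3854 with the longest (2925 to 26562 bases). With the running median over length taken off, the median was -0.29 for the tight junction partners, -0.21 for the desmosome and plakin genes and -0.61 for the epithelial regulators, and that of the 9 members went from 0 to -0.11, with 2 of the 9 above 0. In the WT transition the median log2 ratio ran the other way, from -0.34 over the shortest to 0.28 over the longest transcripts. In that of Cripto KO it ran from -0.14 to 0.05. With the correction, the WT transition median of the desmosome and plakin genes went from 0.88 to 0.51. That of the 9 members went from 3.46 to 3.54. The part of transcript length in these results was not tested further.

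**Figure D4:**
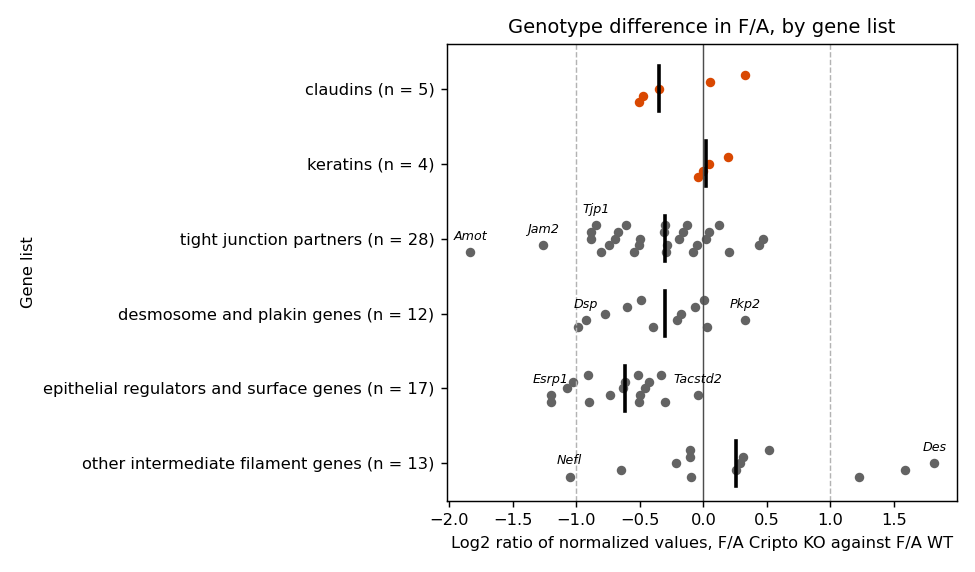
Log2 ratio of normalized values, F/A Cripto KO against F/A WT, for each gene kept (points, spread vertically within a row for visibility) of the claudins, the keratins and 4 lists, with the median of each as a black bar and dashed lines at a 2-fold difference. The epithelial regulators all lie below 0 with a median of -0.61, the tight junction and desmosome lists have a median of -0.30, and the keratins lie within 0.20 of 0.

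Few other claudins and keratins passed the filter. Of 21 other claudins 4 were kept, and of 46 other keratins 6 were. Cldn12, a widely expressed claudin, had 616 counts in WT and 627 in Cripto KO in serum/LIF, and 881 and 1028 in F/A, and the gene that the annotation calls Cldn25 had 395, 373, 766 and 770. Neither reached 2-fold between the F/A libraries, and Cldn25 was 2.09-fold higher in F/A in WT. Of the 4 other claudins kept, 1 was called higher and 0 lower in F/A Cripto KO against F/A WT, Cldn11 on 68 and 28 counts. Over all genes 4.59% were called higher and 5.69% lower. In the transition 3 of the 4 were called higher in WT and 2 in Cripto KO, and 0 lower in each. The shares over all genes were 22.1% and 20.9% in WT and 19.9% and 19.4% in Cripto KO. Krt42, a type I keratin, went the other way from Krt8 and Krt18, with 262, 229, 4 and 0 counts. Krt17, a type I keratin of stressed and basal epithelia, had 61, 109, 9 and 16 counts in the same order, and Krt10, of the suprabasal epidermis, had 86, 83, 119 and 84. Both were far below Krt8 in F/A. Of the 6 other keratins kept, 1 was called higher and 1 lower in F/A Cripto KO against F/A WT. In each transition 2 of the 6 were called higher and 3 lower.

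The genes whose pattern over the 4 libraries came nearest to that of Krt8 and Cldn6 were found by the Euclidean distance of centred log2 values, among 11378 genes with a mean normalized value of at least 100. Nearest to Krt8 were Nog (noggin, a secreted BMP antagonist, 5, 5, 1019 and 1060 counts, distance 0.115), Zbtb16 (0.660) and Gbp2 (0.719). Nearest to Cldn6 were Prkce (protein kinase C epsilon, 74, 62, 644 and 512 counts, distance 0.121), Mbp (0.171) and Gm17509 (0.189). Krt18 was the 13th nearest gene to Krt8, at a distance of 1.01, and Krt8 the 12th nearest to Krt18. With 4 points per gene such a distance is a description only.

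Markers of other cell types, some of which hold simple keratins or claudins, were looked up in the 4 libraries as well. Their summed CPM are given in the order serum/LIF WT, serum/LIF Cripto KO, F/A WT and F/A Cripto KO. The 14 trophoblast markers summed to 129, 96.6, 230 and 256. Of the 10 kept, 3 were called higher and 2 lower in F/A Cripto KO. Beside this and the marker lists that follow, 4.59% of all genes were called higher and 5.69% lower. Cdx2, with 2, 1, 104 and 674 counts, and Hand1, with 1, 2, 196 and 1730, were called higher, Eomes, with 422 against 1963, was called lower, and Tpbpa and Prl3d1 were at 0 counts in every library and Elf5 at no more than 2. The 10 definitive endoderm markers summed to 165, 227, 555 and 324, with 5 called lower and 0 higher in F/A Cripto KO, among them Cer1 (82 counts against 467). Trh, with 2582, 3485, 2967 and 848 counts, gave most of the serum/LIF sums and was also called lower. Gata4 (1356 against 831) and Gata6 (798 against 465) had more counts in F/A Cripto KO but were not called.

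The 11 visceral endoderm markers summed to 655, 836, 418 and 447, mostly from Apoe, and Afp was at 0 counts in every library. Of the 8 kept, 1 was called higher and 3 lower in F/A Cripto KO, or 0 and 4 with the other 3 scalings. Apoe, Dab2 and Pdgfra were not called, and the called genes had at most 49 counts in the F/A libraries. The 8 surface ectoderm markers, of which 4 were kept, summed to 37.5, 36.7, 90.4 and 99.0, with 3 called higher and 0 lower in F/A Cripto KO. Perp, which is also among the desmosome genes, gave most of this sum, and without it the sum was 5.02, 3.01, 6.5 and 15.1. The 3 surface ectoderm calls rest on at most 84 counts in either F/A library, and 2 were called with total counts or with 5 added. Krt5 and Krt14, the keratins of basal epidermis, had at most 4 and 6 counts. The 9 endothelial markers summed to 301, 238, 289 and 175, and without Flt1 to 298, 235, 49.2 and 83.4. Flt1 was the one called lower, on 1446 counts against 3646. Of the 8 endothelial markers kept, 4 were called higher and 1 lower in F/A Cripto KO, with a median log2 ratio of 1.02, and Cdh5 had at most 24 counts. The higher calls rest on at most 54 counts in either F/A library, while Kdr (738 against 417) and Egfl7 (414 against 276) were not called. With 5 added to every value 3 were called higher and the median was 0.87. The 7 fibroblast markers summed to 116, 123, 72.5 and 190, with 3 called higher and 0 lower in F/A Cripto KO. The trophoblast, definitive endoderm and surface ectoderm sums were higher in F/A than in serum/LIF in each genotype, as the members were. In F/A Cripto KO the definitive endoderm sum was lower than in F/A WT, as Cldn4, Cldn6 and Cldn7 were. So were the endothelial sum with Flt1 and that of the 8 pluripotency and epiblast markers, at 213 against 486. The part of these cells in the results was not tested.

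Copies of a transcript elsewhere in the genome can take reads from it. The longest transcript of each member was aligned to NCBIM37, and 8 of the 10 had no other match of at least 200 bases at an identity of at least 90%. Krt8 matched chr7:24142113-24143830 without introns at 97.9% identity over 1734 bases, inside the gene Nlrp4e, which had 0 counts in every library. Krt18 matched chr13:118246579-118247933, also without introns, at 90.3% over 1385 bases, where no counted gene lies. The count of reads left out there is unknown. Cldn3 overlaps the antisense RNA Wbscr25, which had at most 3 counts, and the strand setting of the counting is not given in the sources used here.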

How the data were processed

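Total RNA of 4 cultures was sequenced, with 1 library each. The authors aligned the reads to mm9 (NCBIM37) with TopHat2 2.0.13, obtained counts per gene of Ensembl 67 with HTSeq 0.6.1p1, and deposited these raw counts. They also deposited a signal made from these counts, full quantile-normalized values of the genes kept by a filter on low expression, and quantile normalization of the counts gave 100% of these values within 1% plus 0.5. Library totals ran from 15230856 to 17315442 counts, so intervals are narrow for Krt8 and wide for Cldn9.

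Gene symbols, coordinates and lengths came from an NCBIM37 annotation, which named 37205 (98.9%) of the genes. Log2 ratios were taken of normalized values, with 0 replaced by 0.5, and a gene was called at 2-fold. Intervals are Clopper-Pearson intervals of raw counts scaled by library totals, and those of the ratio of ratios are exact conditional intervals of the odds ratio. No p-value was computed, since no group has replicates. The members and lists were chosen with earlier results of these data known. Named genes outside the members were drawn from up to 4 of each list with the largest absolute log2 ratio between the F/A libraries. These had 200 or more counts in the higher library, and of the cell type lists only some of them are named. Also named were other claudins and keratins with 100 or more counts, the 3 nearest to Krt8 and Cldn6, and Tdgf1. Jam2, Grhl3, Nefh, Gfap, Cldn11 and the cell type markers given only by their counts were chosen after their values were seen.

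The alternatives were total counts, TMM factors of edgeR 4.0.16 and size factors of DESeq2 1.42.0 (R 4.3.3), F/A Cripto KO counts halved, 5 added to every value, a mean of 50 counts, no filter, protein-coding genes, a 3-fold threshold, intervals without 1, a correction for transcript length and the longest transcript. They were applied to the gene lists after the data had been seen. Python 3.11.15 with numpy 2.4.6, scipy 1.17.1 and pandas 2.3.3 was used, with minimap2 2.31 for transcript copies and matplotlib 3.10.9 for figures. The steps were tested on simulated data. The simulation-based probability of the study was not computed here, and its calls were replaced by the fold threshold.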

Additional observations from a re-analysis of the deposited data

Results flagged for a closer look

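By normalized values, the difference of Cripto KO from WT pointed one way in F/A and the other way in serum/LIF for 6 members. Each side is 1 library. The difference of the log2 ratios, F/A minus serum/LIF, was 1.80 for Krt7, 1.40 for Krt19, 0.93 for Cldn9, 0.36 for Cldn3, -0.50 for Cldn4 and -0.57 for Cldn6. Without replicates these differences were not tested. The counting interval of the ratio of ratios lay on one side of 1 for Krt7, Krt19, Cldn4 and Cldn6 and held 1 for Cldn3 and Cldn9. Within F/A the log2 ratio was small for Krt7 (0.04) and Cldn3 (0.05), and its sign changed over the alternatives. Within serum/LIF it was small for Cldn6 (0.06) and kept its sign. Krt18 is not among the 6, but by count ratio it also changed side. Its ratio was 0.612 (0.463 to 0.804) in serum/LIF and 1.07 (1.05 to 1.10) in F/A, where its sign depends on the scaling.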

How the results depend on the processing

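In each transition 9 members were called higher, 8 with a mean of 50 counts (which removes Cldn9), 8 at 3-fold (Cldn9 is lost in WT and Cldn4 in Cripto KO) and 10 without a filter (which adds Cldn5), and the other alternatives left the number at 9. Among 440 values of single members under the alternatives, 410 stayed within the counting interval of the value given, 30 moved outside it, and none of the called ratios changed sign. Of the 30, 14 were levels per kilobase with the longest transcript. The 410 include 36, 32 and 36 log2 ratios under protein-coding genes, a mean of 50 counts and no filter. They also include 9, 8 and 9 differences of the transitions under the same settings. These could not move, since those settings change which genes are kept and not the normalized values. The counts of genes called moved by more than 1.5 times as follows. Without a filter they were 10714 and 10041 in the WT and Cripto KO transitions, 4647 between the F/A libraries and 3252 between the serum/LIF libraries, against 6662, 6077, 1590 and 867. At 3-fold they were 4221, 3924, 709 and 326. With a mean of 50 counts they were 763 between the F/A libraries and 306 between the serum/LIF libraries. Between the serum/LIF libraries they were 403 with 5 added and 516 with an interval without 1. Among the members, 1 was called between the F/A libraries without a filter, which is Cldn5 on 10 and 3 counts, and 1 between the serum/LIF libraries at 3-fold. The median log2 ratio of the members was 2.82 and 3.46 in the WT and Cripto KO transitions without a filter, 4.16 in Cripto KO with a mean of 50 counts, and -0.11 between the F/A libraries after the correction for length. No paired analysis was possible because each group holds 1 library. Depth limits Cldn5 and Cldn9, whose counts do not exceed 34.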
